A study of Mus musculus with 24 samples.

Results

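The transcripts of cultured muscle fibres and of the fibroblasts grown from the same kind of muscle were compared in the C57 line without hormone. The comparison took 3 libraries of C57 vehicle myotubes and 3 libraries of C57 vehicle fibroblasts, 6 of the 24 libraries of the series, and covered every gene, with attention to ligands, receptors, ion channels and transcription factors. The series follows signals that myotubes treated with the hormone aldosterone send to fibroblasts, and these 6 libraries are its cell types in the vehicle condition.

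Both cell types came from hindlimb muscle of C57 BL/10 mice less than 5 days old, per the labels. The myotubes had been grown from primary myoblasts in F10 medium with horse serum and bFGF, were differentiated without bFGF, and received 0.001% DMSO as vehicle for 48 h in medium with charcoal-stripped horse serum. They were then kept in fresh medium of that kind for 15 h before lysis. The fibroblasts had been grown in DMEM with fetal bovine serum and were lysed after 24 h in the medium that vehicle-treated C57 myotubes had conditioned. No library of fibroblasts kept in plain medium enters the comparison, so a difference between the cell types and a difference between their media cannot be told apart. The labels number the libraries as biological replicates and do not say whether each came from separate animals, so the p-values measure the spread between these libraries.

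Skeletal muscle fibres form when mononucleate myoblasts fuse into multinucleate myotubes, which then assemble sarcomeres and the membrane system that couples electrical excitation to calcium release. The fibroblasts of muscle are mesenchymal cells that lay down collagen and other matrix and that supply growth factors to the fibres. Ligands released by one cell act on receptors of the same or another cell, channels set how a cell responds to voltage, transmitters and calcium, and transcription factors hold a cell in its lineage.

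The myotube libraries held 14578755 to 31144746 counts and the fibroblast libraries 27966848 to 38764711 counts. Mitochondrial genes took 6.61 to 8.25% of the counts in myotubes and 1.48 to 1.67% in fibroblasts. Within a cell type, log CPM correlated at 0.98 to 0.993 between libraries. Levels below are CPM (counts scaled to the TMM-adjusted library total), and a floor of 3 counts in a library corresponds, averaged over the libraries of a group, to 0.157 CPM in myotubes and 0.0886 CPM in fibroblasts. Every gene described below as higher or lower was called at an adjusted p below 0.05 unless its sentence says otherwise. The floors, and the counting intervals below, cover counting error only.

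The identity genes separated the cultures as labelled. Acta1, the actin of skeletal muscle thin filaments (ENSMUSG00000031972, chromosome 8, 124618508 to 124621490, minus strand, mm39), had 12544, 12196 and 11684 CPM in myotubes, against 41.6, 14.8 and 12.4 CPM in fibroblasts. Myh3, the embryonic myosin heavy chain, had 5718, 5175 and 5433 CPM in myotubes, against 6.8, 1.85 and 2.89 CPM in fibroblasts. Myh7, the slow myosin heavy chain (ENSMUSG00000053093, chromosome 14, 55208141 to 55232083, minus strand), had 2243, 1969.9 and 2106 CPM in myotubes, against 0.49, 0.357 and 0.23 CPM in fibroblasts. Each of these 3 genes was higher in every myotube library than in any fibroblast library, and fibroblast replicate 1 was the highest fibroblast library for all of them.

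Col1a1, a chain of fibrillar collagen (ENSMUSG00000001506, chromosome 11, 94827050 to 94843868, plus strand), had 175, 559 and 446 CPM in myotubes, against 6792, 10895 and 9761 CPM in fibroblasts. Pdgfra, a platelet-derived growth factor receptor that marks mesenchymal cells of muscle (ENSMUSG00000029231, chromosome 5, 75312953 to 75358876, plus strand), had 9.94, 12 and 10.4 CPM in myotubes, against 448, 415 and 395 CPM in fibroblasts. The groups did not overlap for either gene, and myotube replicate 1 had the least Col1a1 of all 6 libraries. Dmd, which encodes the membrane-linking protein dystrophin and is not mutated in the C57 line, had 454, 362 and 387 CPM in myotubes, against 22.8, 28.7 and 29.5 CPM in fibroblasts. Its log2 difference (myotubes minus fibroblasts) was 3.89 ± 0.13 (± SE), with an edgeR adjusted p of 1.6e-07.

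In the marker lists, 8 of 8 myotube genes were higher and 8 of 8 fibroblast genes were lower in myotubes. Over all genes tested, 38.9% were called higher and 37.6% lower in myotubes by the same rule. These shares are the background for all counts of called markers, here and in the next paragraph. The myotube list summed to 32800 to 36100 CPM in myotubes and 26.3 to 103 CPM in fibroblasts. The fibroblast list summed to 238 to 804 CPM in myotubes and 12500 to 18800 CPM in fibroblasts. In bulk libraries, fewer cells of a type and less RNA per cell cannot be told apart, so these sums do not give the share of fibroblasts in the myotube cultures. Myoblast genes (5 in the list, among them Pax7 and Myf5) summed to 234 to 261 CPM in myotubes and 0.295 to 0.957 CPM in fibroblasts.

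Markers of cells that neither label names were also present. Endothelial genes summed to 78.2 to 177 CPM in myotubes and 0.551 to 0.591 CPM in fibroblasts. Of the 6 in the list, 5 were tested and all 5 were called higher in myotubes. Kdr and Tie1, 2 of these 5, averaged only 1.04 and 1.77 CPM in myotubes. Cldn5, which was not tested, averaged 0.0348 CPM in myotubes and 0.0778 CPM in fibroblasts, below the floor in both. Macrophage genes summed to 6.51, 167 and 97.2 CPM in myotubes and 7.22 to 9.2 CPM in fibroblasts, so only myotube replicates 2 and 3 stood above the fibroblasts, and 3 of 5 tested were called higher. Tendon and cartilage genes summed to 271 to 307 CPM in myotubes and 1360 to 3050 CPM in fibroblasts, with 5 of 6 lower and Scx alone higher in myotubes. Most of the fibroblast sum was Col2a1, a cartilage collagen, with 2814, 1149 and 1792 CPM in fibroblasts and 13.2 CPM on average in myotubes. Acan, another cartilage gene, averaged 26.7 CPM in fibroblasts and 0.153 CPM in myotubes. Scx, with an average of 239 CPM, made up most of the myotube sum. Smooth muscle and pericyte genes summed to 268 to 305 CPM in myotubes and 382 to 444 CPM in fibroblasts. The largest parts were Abcc9 in myotubes (142 CPM) and Cspg4 in fibroblasts (344 CPM), and Myh11 averaged 12.4 CPM in myotubes and 12.8 CPM in fibroblasts. These sums therefore do not show smooth muscle cells or pericytes in either culture. Schwann and neural genes summed to 10.9 to 14.7 CPM in myotubes and 12.3 to 14.2 CPM in fibroblasts. Adipocyte genes summed to 1.47 to 5.89 CPM in myotubes and 4.67 to 11.3 CPM in fibroblasts, with 3 of 5 at 0 in every myotube library and 1 of 5 at 0 in every fibroblast library. In the smooth muscle and the Schwann lists, 2 genes were called higher and 2 lower in myotubes. All 6 red blood cell and keratinocyte genes were listed at 0 in both groups, and whether these zeros are failed estimates or an absence of transcripts was not tested. The part of these other cells in the differences below was not tested.

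**Figure D1:**
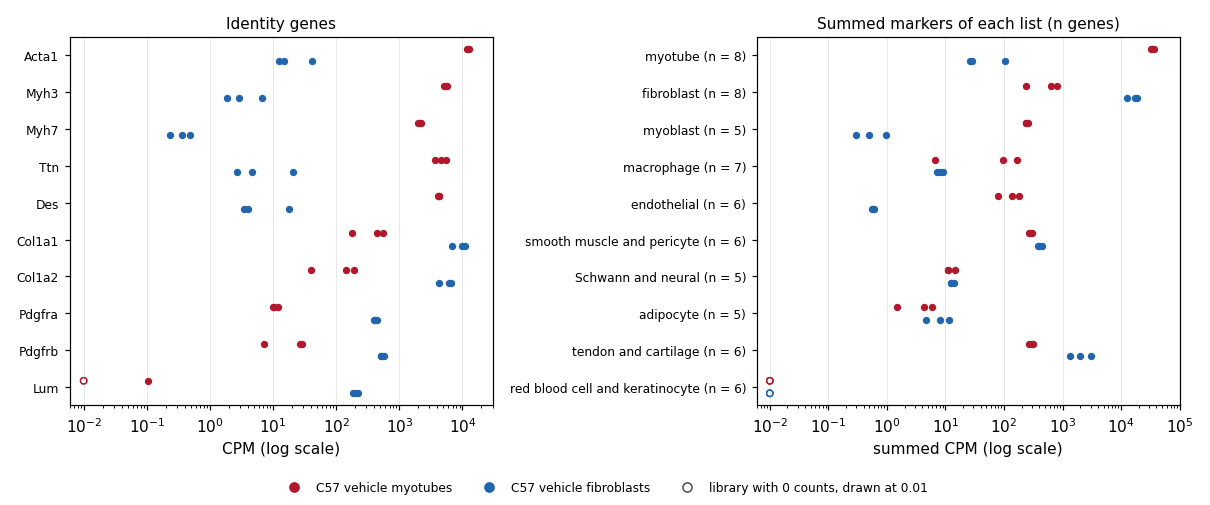
Levels of 10 identity genes (left, CPM) and summed levels of the 10 marker lists (right, summed CPM) in each library, on log axes; red points are the 3 C57 vehicle myotube libraries, blue points the 3 C57 vehicle fibroblast libraries, and open points libraries with 0 counts drawn at 0.01. The muscle genes and the fibroblast genes separate the groups without overlap, and the macrophage list lies at 6.51 CPM in 1 myotube library and at 97.2 and 167 CPM in the others.

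Most genes differed between the cell types. Of 16647 genes tested with edgeR's quasi-likelihood test, 12743 (76.5%) were called at an adjusted p below 0.05, 6483 (38.9%) higher and 6260 (37.6%) lower in myotubes. A second rule asked for a difference of more than 2-fold, and 5328 genes (32%) passed it, 2728 (16.4%) higher and 2600 (15.6%) lower. The count past 2-fold was 5367 without myotube replicate 1 and 5468 without both replicates numbered 1, the libraries that stood apart in the marker lists. With library totals in place of TMM scaling, 5104 genes were higher and 7732 were lower, and that scaling moved the median of all genes by -0.26 on the log2 scale. Since most genes pass the first rule, the counts below use the 2-fold rule unless another is named. The background for each list count below is the share of all genes, 16.4% higher and 15.6% lower.

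Most of the largest differences over all protein-coding genes were of muscle and matrix genes. Igfn1, an immunoglobulin-domain protein of skeletal muscle (ENSMUSG00000051985, chromosome 1, 135881316 to 135934080, minus strand), had 302, 247 and 280.2 CPM in myotubes and 0.0234, 0.0324 and 0.0328 CPM in fibroblasts, a ratio of 9470-fold (95% counting interval 3240 to 45900). Myl2, the regulatory light chain of slow and cardiac myosin, had 109, 98.6 and 87.3 CPM in myotubes and 0.0234, 0 and 0 CPM in fibroblasts, a ratio of 10400-fold (95% counting interval 1870 to 411000). Sln, sarcolipin, a small inhibitor of the muscle calcium pump, had 169.7, 174 and 154 CPM in myotubes and 0.0701, 0 and 0 CPM in fibroblasts, a ratio of 5860-fold (95% counting interval 2000 to 28400). All 3 are known from muscle and had at most 3 counts summed over the fibroblast libraries. Emcn, endomucin, an endothelial surface mucin and a member of the endothelial list, had 41.6, 99.7 and 79.9 CPM in myotubes and 0, 0 and 0.0328 CPM in fibroblasts. Its lowest myotube library was replicate 1. Emcn makes up much of the endothelial sum, so the order of that sum is no separate comparison. Of other members of the list, Pecam1 had 10.3, 22.8 and 13.4 CPM and Cdh5 24.6, 51.5 and 40.7 CPM in myotubes, also lowest in replicate 1.

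In the other direction, Thbs4, thrombospondin 4, a matrix glycoprotein of tendon and muscle (ENSMUSG00000021702, chromosome 13, 92888098 to 92931326, minus strand), had 0, 0.0348 and 0 CPM in myotubes and 171, 297 and 190.3 CPM in fibroblasts, a ratio of 13500-fold (95% counting interval 2420 to 533000) in favour of fibroblasts. Lum, lumican, a proteoglycan that binds collagen fibrils, had 0, 0.104 and 0 CPM in myotubes and 183, 224 and 203 CPM in fibroblasts. Tnn, tenascin N, another matrix glycoprotein, was at 0 in all myotube libraries and had 5.37, 7.46 and 16.7 CPM in fibroblasts, at least 62.7-fold lower in myotubes against the floor of 3 counts per library. Egfl6, a secreted protein with EGF repeats, was at 0 in myotubes and had 7.36, 34.6 and 55.9 CPM in fibroblasts, with unequal fibroblast libraries (edgeR adjusted p = 0.0256). That call was lost without myotube replicate 1 (adjusted p = 0.102), without myotube replicate 2 (0.0622) and without fibroblast replicate 2 (0.0838). Tnn lost its call without both replicates numbered 1 (adjusted p = 0.0839), and without the filter on low counts both Tnn (0.0503) and Egfl6 (0.0957) lost theirs.

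Among genes that do not encode proteins, the 3 largest differences toward myotubes were Gm14635, Gm47908 and Gm11243, which averaged 26.4, 6.73 and 6.71 CPM in myotubes and were at 0 in fibroblasts. Toward fibroblasts they were Carmn, a long non-coding RNA known from smooth muscle cells, ENSMUSG00000120623, which lies beside it, and Gm14066. Carmn had 0.0476, 0.0697 and 0.298 CPM in myotubes, against 7.26, 21.2 and 9.32 CPM in fibroblasts. The libraries were not strand-specific, so reads of these genes and of genes that overlap them cannot be told apart.

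Under the 2-fold rule, which 32% of all genes passed, between 48.5 and 61.5% of the tested genes of the 4 signalling and regulatory classes passed. Of 254 ligands, 179 were tested and 53.1% passed, 37 higher and 58 lower in myotubes. Of 439 receptors, 302 were tested and 53.3% passed, 67 higher and 94 lower. Of 308 ion channel genes, 182 were tested and 61.5% passed, 65 higher and 47 lower. Of 395 transcription factors, 330 were tested and 48.5% passed, 60 higher and 100 lower. Only the ion channels had more genes higher than lower in myotubes. These lists hold well-studied genes, many of them known from muscle or mesenchyme. They were also chosen with earlier results of these data known, so their shares are not independent of the data. Over all genes that the deposited annotation assigns to a transcription factor family, 1100 were tested and 28.5% passed, 139 higher and 174 lower, so the broader set of transcription factors did not show the share of the shorter list.

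The median log2 difference (myotubes minus fibroblasts) was -0.54 over the ligands tested, -0.56 over the receptors, -0.00148 over the channels and -0.29 over the transcription factors, against 0.0184 over all genes. Summed levels differed most for channels and ligands. Channels summed to 13050 ± 1059 CPM in myotubes and 5462 ± 75.28 CPM in fibroblasts (SD, n = 3 each, as for all means below). Ligands summed to 4540 ± 304.2 CPM in myotubes and 9035 ± 511.9 CPM in fibroblasts, and receptors to 13260 ± 237.2 CPM in myotubes and 19710 ± 558.4 CPM in fibroblasts. Transcription factors summed to 18010 ± 684.7 CPM in myotubes and 17000 ± 778.5 CPM in fibroblasts, and their ranges overlapped.

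**Figure D2:**
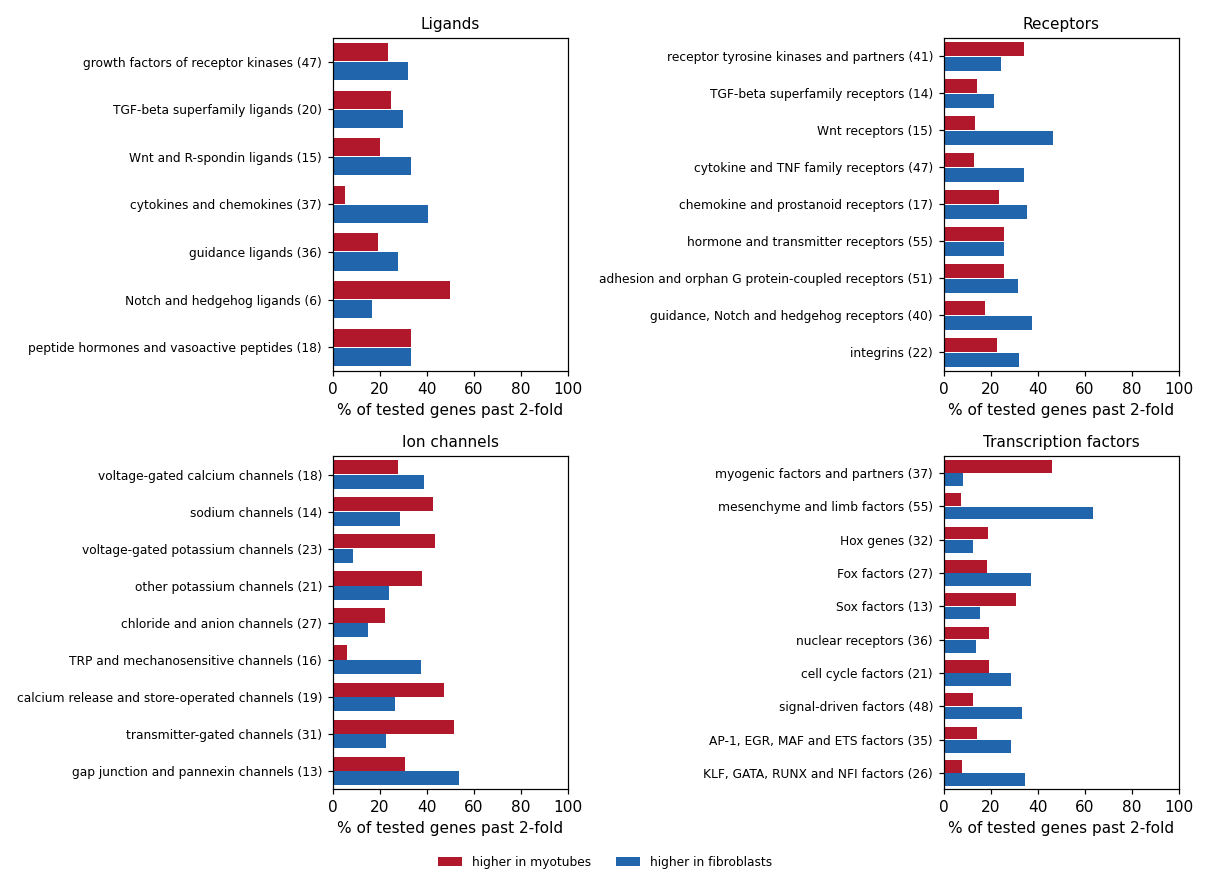
Share of the tested genes of each list (number in brackets) that were past 2-fold higher in myotubes (red, upper bar) or higher in fibroblasts (blue, lower bar), in percent, for the 4 classes in C57 vehicle libraries. Over all genes the shares were 16.4% higher and 15.6% lower in myotubes; the mesenchyme and limb factors (4 of 55 higher, 35 lower) and the myogenic factors (17 of 37 higher, 3 lower) stand furthest apart among the transcription factors.

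Of 31 transmitter-gated channel genes tested, 16 were past 2-fold higher and 7 lower in myotubes. The nicotinic acetylcholine receptor of the neuromuscular junction is a pentamer of alpha, beta, delta and either gamma (fetal) or epsilon (adult) subunits. Chrna1, the alpha subunit that binds acetylcholine (ENSMUSG00000027107, chromosome 2, 73393559 to 73410682, minus strand), had 2159, 1915 and 1888 CPM in myotubes, against 6.1, 0.259 and 0.755 CPM in fibroblasts. Chrng, the fetal gamma subunit (ENSMUSG00000026253, chromosome 1, 87132379 to 87140416, plus strand), had 796, 685 and 657 CPM in myotubes, against 2.43, 0.0648 and 0.262 CPM in fibroblasts. Chrne, the adult epsilon subunit, had 4.56, 5.61 and 4.32 CPM in myotubes, against 0.374, 0.0324 and 0.197 CPM in fibroblasts. All 3 were higher in every myotube library, and fibroblast replicate 1, the fibroblast library with the most muscle transcripts, was the highest fibroblast library for each. Chrnd (delta) averaged 548 ± 56.8 CPM in myotubes and 1.08 ± 1.59 CPM in fibroblasts, and Chrnb1 (beta) 264 ± 35.7 CPM in myotubes and 7.35 ± 0.977 CPM in fibroblasts. Per kilobase of the deposited gene length, the mean level in myotubes was 453 CPM for Chrna1, 171 for Chrng, 167 for Chrnd, 104 for Chrnb1 and 2.86 for Chrne, so the fetal gamma subunit stood far above the adult epsilon subunit. Chrna1 differed by 9.63 ± 1.27 and Chrng by 9.43 ± 0.96 on the log2 scale (± SE), with edgeR adjusted p-values of 0.00127 and 0.000456. On the fibroblast side of the list, Grin2d and Grin3a, subunits of the NMDA glutamate receptor, averaged 1.2 and 1.01 CPM in myotubes, against 13.3 and 9.18 CPM in fibroblasts.

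The promoters of these subunits are shown because the subunits moved together and because the myogenic factors described below recognise the sequence CAGCTG, an E-box. They cover 250 bases before to 50 bases after the gene start, from RefSeq (build GRCm38.p6), with CAGCTG in capitals; Chrnd had no entry.
Chrna1 (chr2:73580289-73580588, minus strand): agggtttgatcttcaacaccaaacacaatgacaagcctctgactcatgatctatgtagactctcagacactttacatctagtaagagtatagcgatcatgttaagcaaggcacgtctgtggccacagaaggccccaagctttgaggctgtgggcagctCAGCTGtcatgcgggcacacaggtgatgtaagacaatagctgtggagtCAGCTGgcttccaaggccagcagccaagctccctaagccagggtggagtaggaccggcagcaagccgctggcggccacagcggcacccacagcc
Chrng (chr1:87205561-87205860, plus strand): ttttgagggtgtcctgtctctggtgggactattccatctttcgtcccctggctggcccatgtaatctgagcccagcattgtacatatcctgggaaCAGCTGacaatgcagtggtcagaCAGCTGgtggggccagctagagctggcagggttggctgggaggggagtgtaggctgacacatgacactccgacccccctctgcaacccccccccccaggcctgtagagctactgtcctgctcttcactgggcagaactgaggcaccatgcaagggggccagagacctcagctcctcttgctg
Chrne (chr11:70619145-70619444, minus strand): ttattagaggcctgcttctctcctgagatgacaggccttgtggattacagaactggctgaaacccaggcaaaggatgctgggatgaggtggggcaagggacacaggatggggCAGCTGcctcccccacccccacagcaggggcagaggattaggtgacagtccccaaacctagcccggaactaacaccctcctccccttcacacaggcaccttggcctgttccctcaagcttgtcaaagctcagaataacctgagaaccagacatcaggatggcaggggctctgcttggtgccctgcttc
Chrnb1 (chr11:69795888-69796187, minus strand): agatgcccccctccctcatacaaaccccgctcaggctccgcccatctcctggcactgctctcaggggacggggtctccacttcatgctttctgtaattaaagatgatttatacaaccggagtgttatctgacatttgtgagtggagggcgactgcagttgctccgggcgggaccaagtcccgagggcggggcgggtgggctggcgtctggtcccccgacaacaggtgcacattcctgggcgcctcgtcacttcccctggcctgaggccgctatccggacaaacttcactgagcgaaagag
CAGCTG, which reads the same on both strands, begins 92 and 44 bases before the start in Chrna1, 155 and 132 bases before it in Chrng and 138 bases before it in Chrne, and is not in this window of Chrnb1. It was 1 of 6 motifs searched on both strands, with CAGNTG and CANNTG (which contain it), TATAAA, the MEF2 consensus and the CArG box, and it was singled out after the matches were seen. It lay in 16.3% of all 32851 promoters of the table, in 21.3% of those of genes past 2-fold higher in myotubes, in 16.2% of those past 2-fold lower and in 14.5% of the other genes tested. In the channel class the order was the other way, with 18.4% of promoters of genes higher in myotubes and 27.7% of promoters of genes higher in fibroblasts. TATAAA lay in 13.6% of all promoters, 10.9% of promoters of genes higher in myotubes, 9.18% of those lower and 6.7% of the other genes tested, and the MEF2 consensus in 3.19%, 3.95%, 1.85% and 1.49% of the same sets. CAGNTG lay in 51.4%, 52.9%, 46.5% and 42.4% of the same sets, and CANNTG in 72.3%, 70.8%, 64.3% and 62.7%. The CArG box lay in 1.63%, 1.59%, 1.98% and 1.18% of them, so it was more frequent among genes lower in myotubes than among genes higher. The Chrnb1 window, which lacks CAGCTG, holds CAGNTG as cagttg and caggtg. A match is a description of the letters only.

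Excitation reaches calcium stores through the voltage sensor of the transverse tubule and the ryanodine receptor of the sarcoplasmic reticulum. Cacna1s, the voltage sensor (ENSMUSG00000026407, chromosome 1, 135980488 to 136047560, plus strand), had 739, 587 and 592 CPM in myotubes, against 1.49, 0.0648 and 0.361 CPM in fibroblasts. Ryr1, the calcium release channel of skeletal muscle (ENSMUSG00000030592, chromosome 7, 28702769 to 28824604, minus strand), had 2350.3, 1690.0 and 1842 CPM in myotubes, against 8.55, 2.01 and 1.71 CPM in fibroblasts. Ryr3, the form found beside it in immature muscle, had 72.2, 49.2 and 56.6 CPM in myotubes, against 0.397, 0.0972 and 0.328 CPM in fibroblasts. Fibroblast replicate 1 was the highest fibroblast library for Cacna1s, Ryr1 and Ryr3, as it was for the muscle markers. Cacng1, the gamma subunit of the voltage sensor, averaged 241 ± 7.72 CPM in myotubes and 0.208 ± 0.307 CPM in fibroblasts, and Cacnb1, its beta subunit, 381 ± 33.1 CPM in myotubes and 15.2 ± 0.312 CPM in fibroblasts. The log2 differences (± SE) were 8.87 ± 0.87 for Ryr1 and 4.65 ± 0.084 for Cacnb1, with edgeR adjusted p-values of 0.000386 and 6.1e-09.

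The pumps and small proteins that load, buffer and gate the calcium store were past 2-fold higher in myotubes in 15 of 15 genes tested, of 16 in the list. They include Atp2a1, the fast-muscle calcium pump (1035 CPM in myotubes, 1.57 CPM in fibroblasts), Casq2, a calcium-binding protein of the store (1354 and 0.963 CPM), and Trdn, triadin, which anchors it to the release channel (587 and 0.39 CPM). Pln, phospholamban, an inhibitor of the slow-muscle pump, had 13.4, 10.2 and 8.48 CPM in myotubes and was at 0 in fibroblasts, at least 121-fold higher in myotubes. Mcu, the mitochondrial uniporter, averaged 148 CPM in myotubes and 36.6 CPM in fibroblasts, and Stim1, the calcium sensor of the store, 304 CPM in myotubes and 35.1 CPM in fibroblasts.

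The inositol trisphosphate receptors, the other calcium release family, ran the opposite way. Itpr3, one of them, had 25.2, 32.3 and 36.7 CPM in myotubes, against 183, 173 and 159 CPM in fibroblasts. Tpcn2, a lysosomal calcium and sodium channel, had 4.85, 6.13 and 4.84 CPM in myotubes, against 37.4, 39.8 and 47.3 CPM in fibroblasts. Itpr1 and Itpr2 were past 2-fold lower in myotubes as well. Cacna1g, a low-voltage-activated calcium channel, had 0.0476, 1.15 and 0.819 CPM in myotubes, against 37.1, 63.4 and 61.2 CPM in fibroblasts. Cacng7, an auxiliary subunit related to Cacng1, averaged 11.4 ± 0.859 CPM in myotubes and 112 ± 3.97 CPM in fibroblasts. Of 18 voltage-gated calcium channel genes tested, 5 were higher and 7 lower in myotubes, the muscle subunits among the first and Cacna1g among the second.

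Of 14 sodium channel genes tested, 6 were higher and 4 lower in myotubes. Scn4a, the channel of adult skeletal muscle (ENSMUSG00000001027, chromosome 11, 106209418 to 106244114, minus strand), had 123, 81 and 87.2 CPM in myotubes, against 0.514, 0.13 and 0.0328 CPM in fibroblasts. Scn4b, an auxiliary subunit, had 22.5, 16.8 and 18.4 CPM in myotubes and 0, 0 and 0.0656 CPM in fibroblasts, a ratio of 993-fold (95% counting interval 274 to 8210). The muscle pore gene and the auxiliary subunit were thus on the myotube side. On the fibroblast side, Scn2a, a neuronal sodium channel, had 0.761, 1.08 and 1.12 CPM in myotubes, against 5.67, 7.23 and 7.35 CPM in fibroblasts. Asic1, an acid-gated sodium channel, had 2.47, 3.34 and 3.72 CPM in myotubes, against 19.3, 21.6 and 24.5 CPM in fibroblasts.

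Potassium channels leaned to myotubes, with 10 voltage-gated genes higher and 2 lower of 23 tested, and 8 other potassium channel genes higher and 5 lower of 21. Kcnj11, the pore of the ATP-sensitive potassium channel, had 31.6, 26 and 27.2 CPM in myotubes and 0.0234, 0 and 0 CPM in fibroblasts, a ratio of 2930-fold (95% counting interval 525 to 116000). Its regulatory partner Abcc8 had 16.5, 10.3 and 13.7 CPM in myotubes and was at 0 in fibroblasts, at least 153-fold higher in myotubes. The other regulatory partner, Abcc9, averaged 142 ± 26.9 CPM in myotubes and 1.34 ± 0.0946 CPM in fibroblasts, and it is also a pericyte marker. Kcnc1, a fast delayed rectifier, had 107, 80.8 and 87.5 CPM in myotubes, against 0.28, 0 and 0 CPM in fibroblasts. Kcnc4, of the same family, averaged 18.9 ± 0.602 CPM in myotubes and 0.0234 ± 0.0404 CPM in fibroblasts. Kcnc1 was at 0 in 2 fibroblast libraries and present in replicate 1. Kcnn3, a calcium-activated channel known from immature muscle, averaged 135 ± 10.5 CPM in myotubes and 2.06 ± 0.417 CPM in fibroblasts. Toward fibroblasts, Kcne4, an auxiliary subunit that damps potassium currents, had 0.476, 0.488 and 1.04 CPM in myotubes, against 7.89, 15.8 and 9.32 CPM in fibroblasts. Kcnd1, a channel of transient outward currents, had 0.666, 1.25 and 1.12 CPM in myotubes, against 11.9, 12.5 and 12.5 CPM in fibroblasts.

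Clcn1, the channel that carries the resting chloride current of adult muscle, was low in both cell types, with 7.13, 3.87 and 4.02 CPM in myotubes and 0.304, 0.519 and 0.394 CPM in fibroblasts. Ano5, a membrane protein of muscle related to calcium-activated chloride channels, had 219, 176 and 181 CPM in myotubes, against 1.26, 0.486 and 0.623 CPM in fibroblasts. Ttyh3, an anion channel of the tweety family, had 29.5, 43.9 and 42.1 CPM in myotubes, against 239, 263 and 270.5 CPM in fibroblasts. Lrrc8a, the core subunit of the volume-regulated anion channel, averaged 7.29 ± 0.222 CPM in myotubes and 16.3 ± 0.462 CPM in fibroblasts. The chloride and anion list held 6 genes higher and 4 lower of 27 tested (37%, against 32% of all genes).

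Channels for stretch and temperature and those that join cells had more genes higher in fibroblasts. Of 16 TRP and mechanosensitive genes tested, 1 was higher in myotubes and 6 were lower. Trpv4, a channel opened by swelling and warmth, had 0.666, 3.38 and 2.16 CPM in myotubes, against 43.9, 32.2 and 30.3 CPM in fibroblasts. Trpm6, a magnesium-permeable channel, had 0.285, 0.557 and 0.372 CPM in myotubes, against 25.4, 17.5 and 16.1 CPM in fibroblasts. Both were low in every myotube library. Gap junction genes split by member, with 4 higher and 7 lower of 13 tested. Gja1 (connexin 43) averaged 88.3 ± 10.8 CPM in myotubes and 624 ± 77.7 CPM in fibroblasts. Gjb2 (connexin 26) had 0, 0.0348 and 0.149 CPM in myotubes, against 1.96, 14.2 and 5.54 CPM in fibroblasts, and its call was lost without myotube replicate 1 (edgeR adjusted p = 0.0606). Both of these connexins were lower in myotubes, and others ran the opposite way. Gjd4, the connexin described in mouse myogenic cells, had 8.7, 7.91 and 8.93 CPM in myotubes and 0.0234, 0 and 0 CPM in fibroblasts. Gja5 (connexin 40), which endothelial cells also make, had 19.1, 18 and 14.9 CPM in myotubes and 0.0234, 0.0648 and 0 CPM in fibroblasts. The endothelial sum was 78.2, 177 and 138 CPM in the same myotube libraries, and the part of endothelial cells in Gja5 was not tested.

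The channels of highest level that were not called were Clcn4, Orai2 and Cacnb3. Clcn4, an exchanger of chloride for protons, averaged 78.1 ± 0.134 CPM in myotubes and 80.8 ± 4.4 CPM in fibroblasts. Orai2, a store-operated calcium channel, averaged 56.5 ± 3.47 CPM in myotubes and 56.4 ± 7.45 CPM in fibroblasts, while its relative Orai1 averaged 57.2 CPM in myotubes and 14.6 CPM in fibroblasts and passed the 2-fold rule. Cacnb3, a calcium channel beta subunit, averaged 42.8 ± 2.23 CPM in myotubes and 46 ± 1.82 CPM in fibroblasts. Missing the threshold does not show that their levels are equal.

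**Figure D3:**
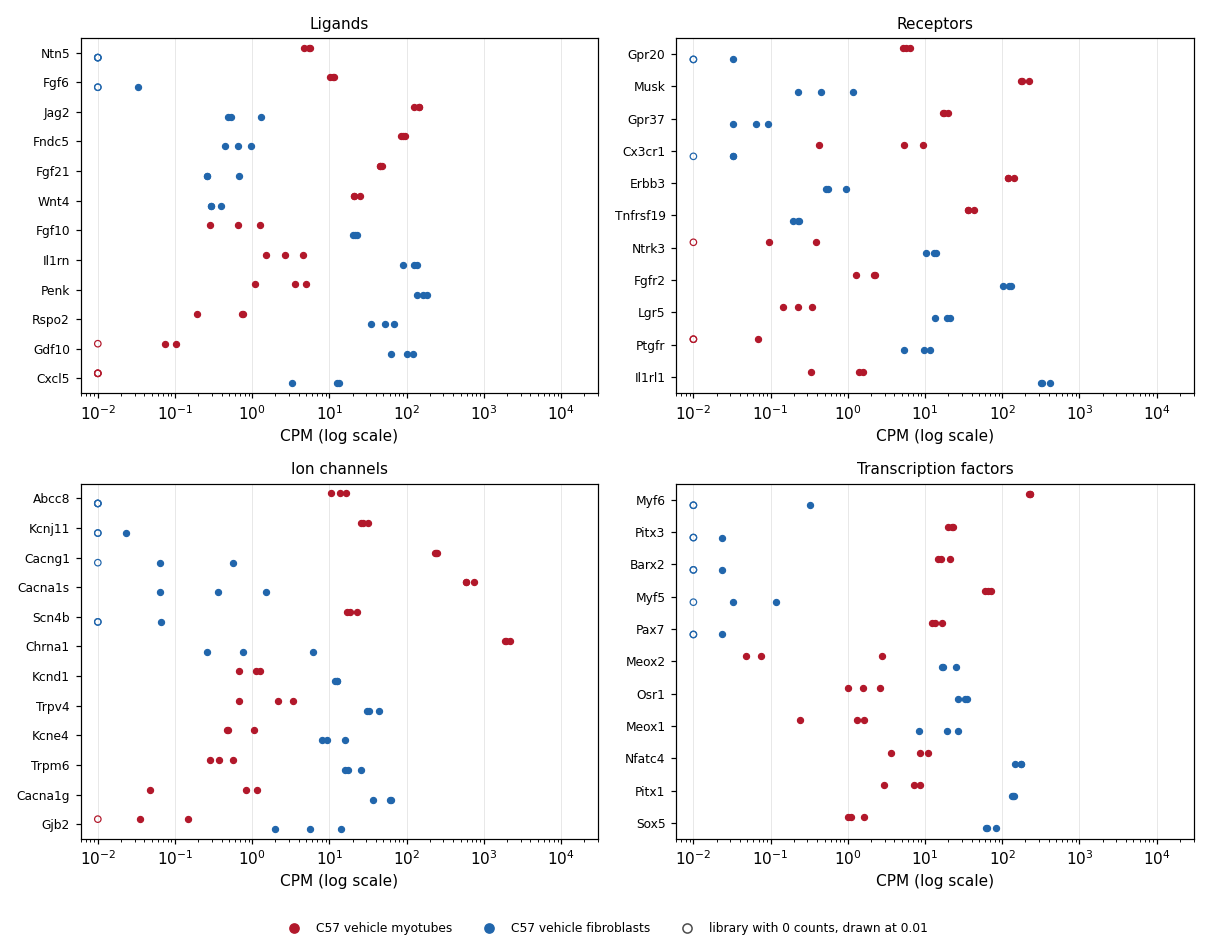
CPM in each library (log axis) of up to 6 genes with large differences in each direction in each class, chosen by size, ordered from the largest difference toward myotubes (top) to the largest toward fibroblasts (bottom). Red points are the 3 C57 vehicle myotube libraries, blue points the 3 C57 vehicle fibroblast libraries, and open points libraries with 0 counts drawn at 0.01; the groups do not overlap for any gene shown, which the choice of the genes required.

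Among transcription factors, the myogenic and the mesenchymal lists lay on opposite sides. Of 37 myogenic factors and partners tested, 17 were past 2-fold higher and 3 lower in myotubes. Myod1, Myf5, Myog and Myf6 are the basic helix-loop-helix factors that set and carry out the muscle programme. Myf6 (ENSMUSG00000035923, chromosome 10, 107328714 to 107330598, minus strand) had 231, 230.4 and 221 CPM in myotubes, against 0.327, 0 and 0 CPM in fibroblasts. Myf5 had 70.6, 60.1 and 65.1 CPM in myotubes, against 0.117, 0 and 0.0328 CPM in fibroblasts. Myog averaged 666 ± 26.7 CPM in myotubes and 1.48 ± 2.02 CPM in fibroblasts, and Myod1 359 ± 6.79 CPM in myotubes and 0.411 ± 0.516 CPM in fibroblasts. Pax7, the factor of satellite cells and unfused progenitors, had 16.5, 12.4 and 13.6 CPM in myotubes and 0.0234, 0 and 0 CPM in fibroblasts, a ratio of 1460-fold (95% counting interval 262 to 57900). Each of these 5 genes had its highest fibroblast value in replicate 1. Mef2c, which acts with the myogenic factors, averaged 2748 ± 307 CPM in myotubes and 26.8 ± 2.33 CPM in fibroblasts. Mrtfa, a partner of serum response factor, was among the 3 of the list that were lower, with 42.4 ± 2.45 CPM in myotubes and 94.9 ± 5.59 CPM in fibroblasts. The membrane proteins through which myoblasts fuse followed the myogenic factors, with 5 of 8 tested higher and 1 lower. Mymk, myomaker, had 437, 393 and 376 CPM in myotubes, against 1.05, 0.0324 and 0.262 CPM in fibroblasts, and Myof, myoferlin, which also acts in membrane repair, was the 1 lower gene, at 169.8 ± 24.8 CPM in myotubes, against 413 ± 30.7 CPM in fibroblasts.

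Among homeobox factors, Pitx3, which acts in muscle differentiation, had 23.3, 22.7 and 19.6 CPM in myotubes and 0.0234, 0 and 0 CPM in fibroblasts. Its relative Pitx1, which specifies the hindlimb (ENSMUSG00000021506, chromosome 13, 55972864 to 55984005, minus strand), ran the other way with 2.9, 7.24 and 8.48 CPM in myotubes, against 144, 139 and 133 CPM in fibroblasts. Barx2, a homeobox factor of muscle progenitors, had 21.3, 16.2 and 14.9 CPM in myotubes and 0.0234, 0 and 0 CPM in fibroblasts. Pitx3 and Pitx1 thus lay at opposite ends of the comparison.

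Of 55 mesenchyme and limb factors tested, 35 were past 2-fold lower in myotubes and 4 were higher. Osr1, a zinc-finger factor of limb connective tissue, had 0.999, 2.65 and 1.56 CPM in myotubes, against 27.1, 32.8 and 34.8 CPM in fibroblasts. Meox1, a homeobox factor of somites, had 0.238, 1.32 and 1.64 CPM in myotubes, against 8.43, 27 and 19.3 CPM in fibroblasts. Its relative Meox2 had 0.0476, 2.79 and 0.0744 CPM in myotubes, against 17.3, 25.4 and 16.8 CPM in fibroblasts. Myotube replicate 2 was high for Meox2, whose call was lost without both replicates numbered 1 (edgeR adjusted p = 0.0685). Prrx1, a general factor of limb mesenchyme, averaged 68.8 ± 4.34 CPM in myotubes and 639.9 ± 11.7 CPM in fibroblasts, and Twist1, another mesenchymal factor, 4.56 ± 1.97 CPM in myotubes and 66.7 ± 3.7 CPM in fibroblasts. Tbx4, a hindlimb factor, averaged 4.09 ± 1.2 CPM in myotubes and 52.6 ± 0.731 CPM in fibroblasts, while its forelimb relative Tbx5 averaged 0.0844 ± 0.0764 CPM in myotubes and 4.21 ± 0.976 CPM in fibroblasts.

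The 4 factors of that list that were higher in myotubes were Tbx1, Scx, Six2 and Tbx15. Tbx1, a factor of head and branchial muscle, had 63.6, 42 and 37.7 CPM in myotubes, against 0.42, 0 and 0.262 CPM in fibroblasts. Scx, scleraxis, the factor that marks tendon, had 228, 248 and 241 CPM in myotubes, against 52.5, 49.3 and 52.2 CPM in fibroblasts, a difference of 2.22 ± 0.059 on the log2 scale (± SE; edgeR adjusted p = 3e-08). The other tendon and cartilage markers were lower in myotubes, with Tnmd at 0, 0.0697 and 0 CPM in myotubes, against 13.3, 34.5 and 19.3 CPM in fibroblasts.

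Sox5, a factor of cartilage and other mesenchyme, had 1.09, 1.01 and 1.64 CPM in myotubes, against 82.1, 63.6 and 61.4 CPM in fibroblasts, and Sox11, a factor known from differentiating neurons, averaged 120.3 ± 9.92 CPM in myotubes and 4.52 ± 0.912 CPM in fibroblasts. Nfatc4, a calcium-responsive factor, had 3.61, 10.9 and 8.48 CPM in myotubes, against 147, 173 and 174 CPM in fibroblasts. Hes6, a muscle and neuronal relative of the Notch effectors, averaged 639 ± 33.9 CPM in myotubes and 14.5 ± 3.14 CPM in fibroblasts. Of 48 factors driven by signals that were tested, 6 were higher and 16 lower, and Gli2, the activator of hedgehog targets, averaged 0.838 ± 0.231 CPM in myotubes and 10.2 ± 1.91 CPM in fibroblasts.

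Families that are not tied to one lineage held genes in both directions. The shares past 2-fold were 55.6% for the Fox and 47.6% for the cell cycle factors. They were 42.9% for the AP-1, EGR, MAF and ETS and 42.3% for the KLF, GATA, RUNX and NFI factors. Over all genes, 16.4% were higher and 15.6% lower. Of the Fox factors, 5 were higher and 10 lower in myotubes of 27 tested. Foxo6 and Foxo4, of the family that responds to insulin, averaged 25.7 and 114 CPM in myotubes, against 0.434 and 22.6 CPM in fibroblasts. Foxp2 and Foxs1 averaged 0.921 and 1.65 CPM in myotubes, against 13.4 and 21.9 CPM in fibroblasts. Of the Hox genes, which give cells their position along the body, 6 were higher and 4 lower of 32. That is 31.2%, near the 32% of all genes. Hoxc11 and Hoxd8 averaged 21.2 and 47 CPM in myotubes, against 9.42 and 22.7 CPM in fibroblasts, and Hoxc8 and Hoxa11 2.26 and 8.25 CPM in myotubes, against 8.2 and 20.2 CPM in fibroblasts. The Hox differences were small beside those of the myogenic and mesenchymal factors. Of 21 cell cycle factors tested, 4 were higher and 6 lower, with Trp63, a relative of p53, at 54.6, 46.1 and 47.5 CPM in myotubes, against 2.71, 2.95 and 4.07 CPM in fibroblasts, and E2f7, a repressor of cell cycle genes, at 0.285, 1.46 and 0.819 CPM in myotubes, against 7.45, 8.2 and 8.04 CPM in fibroblasts. Of 35 AP-1, EGR, MAF and ETS factors tested, 5 were higher, among them the stress-induced Atf3 (17.1 ± 2.22 CPM in myotubes, 2.55 ± 1.28 CPM in fibroblasts), and 10 lower, among them Egr2 (7.05 ± 0.534 CPM in myotubes, 83.6 ± 39.6 CPM in fibroblasts). Of 26 KLF, GATA, RUNX and NFI factors tested, 2 were higher, Klf5 (137 ± 13.8 CPM in myotubes, 13.1 ± 2.74 CPM in fibroblasts) and Klf15 (13 ± 2.4 CPM in myotubes, 2.03 ± 0.501 CPM in fibroblasts), and 9 lower, among them the bone factor Runx2 (11.5 ± 0.596 CPM in myotubes, 54.4 ± 4.48 CPM in fibroblasts).

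Nuclear receptors held 7 genes higher and 5 lower of 36 tested (33.3%, near the 32% of all genes). The estrogen-related receptors drive mitochondrial and energy genes. Esrrg had 29.2, 22.5 and 25.8 CPM in myotubes, against 0.21, 0.0972 and 0.131 CPM in fibroblasts. Esrrb had 17.3, 12.7 and 13.7 CPM in myotubes, against 0.117, 0.13 and 0.0656 CPM in fibroblasts. Vdr, the vitamin D receptor, had 1.05, 0.975 and 1.27 CPM in myotubes, against 10.8, 11.7 and 10.5 CPM in fibroblasts. The receptors that bind aldosterone, the hormone of the series, or its close relatives differed less. Nr3c2, the mineralocorticoid receptor, had 6.23, 3.94 and 5.14 CPM in myotubes, against 2.57, 2.27 and 2.43 CPM in fibroblasts (log2 difference 1.06 ± 0.20, edgeR adjusted p = 0.00145). Nr3c1, the glucocorticoid receptor, had 78.3, 87.7 and 91.1 CPM in myotubes, against 115, 137 and 128 CPM in fibroblasts (log2 difference -0.56 ± 0.084, edgeR adjusted p = 0.000334). Neither passed the 2-fold rule, and per kilobase Nr3c1 stood above Nr3c2 in both cell types, at 11.2 against 0.788 CPM in myotubes and 16.5 against 0.374 CPM in fibroblasts. Among factors of high level, Nfic averaged 279 ± 24.9 CPM in myotubes and 289 ± 6.3 CPM in fibroblasts, Mafg 159 ± 16 CPM in myotubes and 156 ± 3.27 CPM in fibroblasts, and Foxo3 126 ± 8.93 CPM in myotubes and 118 ± 8.71 CPM in fibroblasts, and none of the 3 was called.

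Of 41 receptor tyrosine kinases and partners tested, 14 were higher and 10 lower in myotubes. Musk, the kinase that clusters acetylcholine receptors under the nerve (ENSMUSG00000057280, chromosome 4, 58285960 to 58374303, plus strand), had 224, 177 and 178 CPM in myotubes, against 1.17, 0.454 and 0.23 CPM in fibroblasts. Lrp4, its partner that binds nerve agrin, had 165, 135 and 141 CPM in myotubes, against 17.4, 22.4 and 20.1 CPM in fibroblasts. Erbb3, a receptor for neuregulins (ENSMUSG00000018166, chromosome 10, 128403392 to 128425521, minus strand), had 141, 120.3 and 118 CPM in myotubes, against 0.934, 0.551 and 0.525 CPM in fibroblasts. These receptors of nerve-derived signals were higher in every myotube library, with log2 differences (± SE) of 8.16 ± 0.40 for Musk, 2.88 ± 0.12 for Lrp4 and 7.50 ± 0.18 for Erbb3 (edgeR adjusted p = 1.3e-05, 3.3e-07 and 3.8e-08). Erbb2, the kinase that Erbb3 pairs with, averaged 149 ± 11.8 CPM in myotubes and 58.5 ± 2.69 CPM in fibroblasts.

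Several growth factor receptors were higher in fibroblasts. Pdgfrb, the other platelet-derived growth factor receptor, had 7.09, 28.2 and 26.8 CPM in myotubes, against 506, 513 and 571 CPM in fibroblasts, with myotube replicate 1 again the lowest library, as it was for the fibroblast markers. Fgfr2, a receptor of Fgf7 and Fgf10, had 1.28, 2.19 and 2.23 CPM in myotubes, against 103, 122 and 128 CPM in fibroblasts. Fgfr1, the receptor of Fgf1 and Fgf2, had 97.2, 115 and 104 CPM in myotubes, against 363, 368 and 354 CPM in fibroblasts. Fgfr4, a further member, averaged 1.49 ± 0.125 CPM in myotubes and 0.0373 ± 0.00814 CPM in fibroblasts. Its fibroblast level lay below the floor of 0.0886 CPM. Fgfr3 averaged 19.9 CPM in myotubes and 18.9 CPM in fibroblasts and was not called. The fibroblast growth factor receptors thus split, with Fgfr1 and Fgfr2 lower, Fgfr4 higher at a low level in myotubes, and Fgfr3 not called. Ntrk3, the receptor of neurotrophin 3, had 0.0951, 0.383 and 0 CPM in myotubes, against 10.3, 13.2 and 13.7 CPM in fibroblasts.

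Receptors of the transforming growth factor beta superfamily act as type I and type II kinases with co-receptors. Tgfbr3, the co-receptor betaglycan, had 3.38, 6.23 and 7.74 CPM in myotubes, against 211, 217 and 267 CPM in fibroblasts. Tgfbr2, the type II receptor of transforming growth factor beta, had 79.3, 91 and 84.3 CPM in myotubes, against 226, 278 and 298 CPM in fibroblasts. The type II activin receptors went the other way. Acvr2a had 144, 115 and 118 CPM in myotubes, against 25.7, 36.4 and 29.7 CPM in fibroblasts. Acvr2b had 7.99, 4.88 and 7.15 CPM in myotubes, against 1.19, 1.52 and 1.31 CPM in fibroblasts. Past 2-fold, 2 genes of this list were higher and 3 lower, of 14 tested (35.7%, near the 32% of all genes).

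Wnt receptors held 2 genes higher and 7 lower in myotubes of 15 tested. Lgr5, a receptor of R-spondins, had 0.143, 0.348 and 0.223 CPM in myotubes, against 13.5, 19.5 and 20.8 CPM in fibroblasts, and Lgr6, another, 17.5, 16.8 and 19.3 CPM in myotubes, against 199, 123 and 117 CPM in fibroblasts. Both R-spondin receptors were thus lower in every myotube library. The 2 higher genes were Wnt receptors of the frizzled family, Fzd10 with 8.32, 6.13 and 5.81 CPM in myotubes, against 0.234, 0.162 and 0.295 CPM in fibroblasts, and Fzd3 with 39.6 ± 4.41 CPM in myotubes and 6.95 ± 1.2 CPM in fibroblasts. Of 47 cytokine and TNF family receptors tested, 6 were higher and 16 lower in myotubes. Il1rl1, the receptor of interleukin 33 (ENSMUSG00000026069, chromosome 1, 40468730 to 40504575, plus strand), had the largest difference toward fibroblasts among receptors, with 0.333, 1.39 and 1.56 CPM in myotubes, against 315, 327 and 421 CPM in fibroblasts (log2 difference -8.36 ± 0.39, edgeR adjusted p = 9.3e-06). Myotube replicate 1 was the lowest library for it. Tnfrsf19, an orphan member of the TNF receptor family, had 43.5, 36.4 and 35.7 CPM in myotubes, against 0.234, 0.194 and 0.23 CPM in fibroblasts. Eda2r, the receptor of ectodysplasin A2, had 459, 418 and 424 CPM in myotubes, against 58.6, 54.5 and 49.4 CPM in fibroblasts. Tnfrsf11b, osteoprotegerin, a secreted decoy receptor, averaged 4.16 ± 1.59 CPM in myotubes and 78.2 ± 8.3 CPM in fibroblasts. Tnfrsf12a, the receptor of TWEAK, was among the receptors of highest level that were not called, with 205 ± 28.3 CPM in myotubes and 199 ± 13.3 CPM in fibroblasts.

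G protein-coupled receptors went both ways, with 14 hormone and transmitter receptors higher and 14 lower of 55 tested. Agtr2, an angiotensin receptor, had 0.713, 0.662 and 0.968 CPM in myotubes, against 6.82, 25.5 and 22.4 CPM in fibroblasts, and Agtr1a, of the other type, 0.19, 0.174 and 0.0744 CPM in myotubes, against 2.29, 6.29 and 6.76 CPM in fibroblasts. P2ry1, a receptor of ADP, had 18.8, 13.6 and 13.8 CPM in myotubes, against 0.911, 1.07 and 1.44 CPM in fibroblasts. Ptgfr, the receptor of prostaglandin F2 alpha, had 0, 0.0697 and 0 CPM in myotubes and 5.32, 11.6 and 9.71 CPM in fibroblasts. The angiotensin receptors and Ptgfr were thus higher in every fibroblast library, and P2ry1 in every myotube library. Of 51 adhesion and orphan receptors tested, 13 were higher and 16 lower. Gpr37, an orphan receptor known from glia, had 16.9, 17.7 and 20.1 CPM in myotubes, against 0.0934, 0.0648 and 0.0328 CPM in fibroblasts. Gpr20, another orphan receptor, had 6.42, 5.68 and 5.21 CPM in myotubes, against 0, 0 and 0.0328 CPM in fibroblasts. Of 17 chemokine and prostanoid receptors tested, 4 were higher and 6 lower, and Cxcr4, the receptor of Cxcl12, averaged 5.12 ± 1.93 CPM in myotubes and 0.141 ± 0.0191 CPM in fibroblasts. Cx3cr1, the fractalkine receptor of macrophages, had 0.428, 9.3 and 5.36 CPM in myotubes and 0, 0.0324 and 0.0328 CPM in fibroblasts. Its 3 myotube values followed the order of the macrophage marker sum, 6.51, 167 and 97.2 CPM, as did those of Cxcr4. The endothelial sum (78.2, 177 and 138 CPM) and the fibroblast sum (238, 804 and 642 CPM) had the same order in these libraries. The part of macrophages or of other cells in either result was not tested.

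Integrins bind cells to matrix as pairs of an alpha and a beta chain. Itga7, the laminin-binding alpha chain of muscle, had 624, 561 and 559 CPM in myotubes, against 9.18, 7.49 and 5.35 CPM in fibroblasts, and Itga11, a collagen-binding alpha chain of fibroblasts, 2.33, 12.5 and 5.51 CPM in myotubes, against 94.5, 175 and 161 CPM in fibroblasts. Itgb1, the beta chain that pairs with both, averaged 1418 ± 94.4 CPM in myotubes and 1433 ± 49.7 CPM in fibroblasts and was not called. Itgb6, an epithelial beta chain, had 81.2, 73.8 and 74.4 CPM in myotubes, against 1.42, 0.389 and 0.853 CPM in fibroblasts, and Itgb7, a leukocyte beta chain, averaged 0.286 ± 0.157 CPM in myotubes and 9.63 ± 1.64 CPM in fibroblasts. Of receptors for guidance, Notch and hedgehog signals, 7 were higher and 15 lower of 40 tested, among them Unc5c, a netrin receptor, at 1.24, 3.87 and 3.35 CPM in myotubes, against 70.7, 88.9 and 89.4 CPM in fibroblasts, and Gas1, a hedgehog co-receptor, at 16.6, 18.8 and 17.5 CPM in myotubes, against 288, 382 and 382 CPM in fibroblasts. Plxnb2, a semaphorin receptor of high level, averaged 564 ± 16.8 CPM in myotubes and 591 ± 17 CPM in fibroblasts and was not called.

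Among ligands, cytokines and chemokines had 2 genes higher and 15 lower in myotubes of 37 tested. Il1rn, the interleukin 1 receptor antagonist, had 1.52, 4.56 and 2.68 CPM in myotubes, against 88.4, 123 and 138 CPM in fibroblasts. Cxcl5, a chemokine for neutrophils, was at 0 in all myotube libraries and had 3.27, 12.4 and 13.3 CPM in fibroblasts, at least 61.7-fold lower in myotubes, but its call was lost without myotube replicate 1 (edgeR adjusted p = 0.0632) and without the filter on low counts (0.0696). Csf1, the growth factor of macrophages, averaged 284 ± 59.2 CPM in myotubes and 1311 ± 95.6 CPM in fibroblasts. Cxcl12, with 19.4, 145 and 73.7 CPM in myotubes and 225, 346 and 452 CPM in fibroblasts, was not called (edgeR adjusted p = 0.0536), and its myotube libraries were far apart. It was called under 6 of the other settings tried, with adjusted p-values down to 0.00361 when all 24 libraries entered the fit.

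Of 47 growth factors of receptor kinases tested, 11 were higher and 15 lower in myotubes. Igf2, an insulin-like growth factor made by differentiating muscle (ENSMUSG00000048583, chromosome 7, 142204503 to 142220553, minus strand), had 399.9, 314 and 313 CPM in myotubes, against 4.11, 10.4 and 5.77 CPM in fibroblasts. Fgf21, a stress-induced hormone of liver and muscle, had 48.5, 45.2 and 45.7 CPM in myotubes, against 0.257, 0.681 and 0.262 CPM in fibroblasts. Fgf6, a muscle-restricted fibroblast growth factor, had 11, 10.3 and 11.5 CPM in myotubes and 0, 0 and 0.0328 CPM in fibroblasts, a ratio of 1120-fold (95% counting interval 201 to 44500). For these 3 ligands the groups did not overlap. Hgf, the growth factor that activates satellite cells, had 0.808, 1.85 and 1.86 CPM in myotubes, against 21.2, 28.3 and 30.1 CPM in fibroblasts. Fgf10, a mesenchymal ligand of Fgfr2, had 0.285, 0.662 and 1.27 CPM in myotubes, against 22.4, 21.1 and 20.4 CPM in fibroblasts, and Gas6, the ligand of the kinase Axl, averaged 117 ± 22.2 CPM in myotubes and 811 ± 192 CPM in fibroblasts.

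In the transforming growth factor beta superfamily, Gdf10, also called BMP3b (ENSMUSG00000021943, chromosome 14, 33645544 to 33659940, plus strand), had 0, 0.104 and 0.0744 CPM in myotubes and 123, 63.6 and 100.0 CPM in fibroblasts, the second largest difference toward fibroblasts among ligands after Cxcl5. Inhba, the activin A subunit, had 72, 109 and 119 CPM in myotubes, against 405, 416 and 373 CPM in fibroblasts. Inha, the inhibin subunit that opposes activin, had 40.8, 59.6 and 56.1 CPM in myotubes, against 8.22, 9.69 and 8.46 CPM in fibroblasts. These subunit genes thus differed in direction, with Inhba lower and Inha higher in myotubes. Bmp6 and Bmp5, bone morphogenetic proteins, also split, with Bmp6 at 20.6 CPM in myotubes, against 4.88 CPM in fibroblasts, and Bmp5 at 0.426 CPM in myotubes, against 8.37 CPM in fibroblasts. The Bmp6 myotube libraries were unequal, at 9.915, 30.51 and 21.61 CPM when scaled together with the mdx vehicle libraries. That is the order of the macrophage, endothelial and fibroblast sums, and the part of those cells in Bmp6 was not tested. Mstn, myostatin, which limits muscle growth, averaged 4.27 ± 0.277 CPM in myotubes and 0.0671 ± 0.0657 CPM in fibroblasts. Tgfb3, the ligand of highest level that was not called, averaged 274 ± 6.13 CPM in myotubes and 199 ± 49.5 CPM in fibroblasts (edgeR adjusted p = 0.0528), and it was called under 5 other settings, with adjusted p-values down to 0.00349 without both replicates numbered 1. Hbegf, a ligand of the epidermal growth factor receptor, was not called either, with 109.9 ± 13.6 CPM in myotubes and 111 ± 6.59 CPM in fibroblasts.

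Wnt and R-spondin ligands included genes at both ends, with 3 higher and 5 lower of 15 tested. Rspo2, which amplifies Wnt signals through the Lgr receptors, had 0.19, 0.766 and 0.744 CPM in myotubes, against 34.3, 51.7 and 68.2 CPM in fibroblasts. Wnt4, a Wnt ligand known from muscle differentiation, had 24.6, 21 and 20.9 CPM in myotubes, against 0.397, 0.292 and 0.295 CPM in fibroblasts. Wnt10a, another Wnt ligand, had 3.42, 2.72 and 4.17 CPM in myotubes, against 22.1, 18.3 and 18.4 CPM in fibroblasts. The Wnt ligands thus split by member. Of the Notch ligands, Jag2 (ENSMUSG00000002799, chromosome 12, 112871439 to 112893396, minus strand) had 145, 124 and 143 CPM in myotubes, against 1.31, 0.486 and 0.525 CPM in fibroblasts, and Dll1 averaged 9.94 ± 1.54 CPM in myotubes and 0.65 ± 0.165 CPM in fibroblasts. Dlk1, a non-canonical relative known from growing muscle and fat precursors, had 9.61, 11.9 and 12.4 CPM in myotubes, against 135, 265 and 220.2 CPM in fibroblasts. Jag1, a further canonical Notch ligand, averaged 30.4 ± 8.51 CPM in myotubes and 39.9 ± 7.39 CPM in fibroblasts and was not called. Of 6 Notch and hedgehog ligands tested, 3 were higher and 1 lower in myotubes past 2-fold. Of 36 guidance ligands tested, 7 were higher and 10 lower (47.2%, against 32% of all genes). Sema4d, a semaphorin, averaged 66.9 ± 7.76 CPM in myotubes and 1.85 ± 0.249 CPM in fibroblasts, and Slit3, a Robo ligand, 7.02 ± 6.74 CPM in myotubes and 101 ± 26.3 CPM in fibroblasts. Of 18 peptide hormones and vasoactive peptides tested, 6 were higher and 6 lower. Penk, the enkephalin precursor, had 1.09, 4.98 and 3.57 CPM in myotubes, against 135, 182 and 165 CPM in fibroblasts. Fndc5, the precursor of irisin, had 94.6, 89.7 and 85.1 CPM in myotubes, against 0.444, 0.972 and 0.656 CPM in fibroblasts. Ntn5, a netrin, had 4.71, 5.57 and 5.43 CPM in myotubes and was at 0 in fibroblasts, at least 59.1-fold higher in myotubes.

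To set ligands beside their receptors, 86 known pairs were sorted by the direction in which each partner was called at an adjusted p below 0.05. In 12 pairs the ligand was higher in myotubes and the receptor higher in fibroblasts, and in 9 pairs the ligand was higher in fibroblasts and the receptor higher in myotubes. Both partners were higher in fibroblasts in 21 pairs and higher in myotubes in 3. By the same rule, 54 ligands were called higher in myotubes and 81 lower, of 179 tested. Of 302 receptors tested, 87 were called higher and 149 lower. The pairs were drawn from these lists, which already lean to fibroblasts, so their counts are no separate result about pairing. In 32 pairs a partner was not called and in 9 a partner was not tested. Under the 2-fold rule the 4 kinds held 6, 5, 10 and 3 pairs. Pairs share members (Fgfr2, Egfr and Vegfa stand in more than 1), so they are not independent, and transcripts give no measure of secretion or of binding.

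From myotubes to fibroblasts, the pair with the largest summed difference was Il33 with Il1rl1. Il33, an alarm cytokine, had 5.99, 7.03 and 9.38 CPM in myotubes, against 1.47, 1.39 and 0.787 CPM in fibroblasts, opposite to Il1rl1. Pdgfb, the ligand of Pdgfrb, had 42.1, 32.8 and 33.1 CPM in myotubes, against 2.57, 1 and 1.54 CPM in fibroblasts. Fgf1, an acidic fibroblast growth factor, had 35, 22.1 and 24.6 CPM in myotubes, against 0.794, 0.486 and 0.623 CPM in fibroblasts, opposite to Fgfr1. Endothelial cells also make Pdgfb, and their markers were higher in myotubes, at 78.2, 177 and 138 CPM in myotube replicates 1, 2 and 3. Their part in Pdgfb was not tested. Jag2 with Notch3, Igf2 with Igf1r and Pdgfd with Pdgfrb completed the 6 largest. Pdgfd averaged 44.9 ± 2.16 CPM in myotubes and 15.7 ± 3.95 CPM in fibroblasts. Igf1r and Notch3 were not past 2-fold. Igf1r, the receptor of insulin-like growth factors,  averaged 132 ± 3.83 CPM in myotubes and 256 ± 21.6 CPM in fibroblasts, and Notch3, a Notch receptor of pericytes and smooth muscle, 37.3 ± 3.48 CPM in myotubes and 45.8 ± 4.03 CPM in fibroblasts. Notch3 lost its call without myotube replicate 3 (edgeR adjusted p = 0.0521) and with all 24 libraries in the fit (0.165).

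From fibroblasts to myotubes, the largest was Cx3cl1 with Cx3cr1. The myotube values of this receptor had the order of the macrophage, endothelial and fibroblast marker sums. Cx3cl1, fractalkine, had 34.6, 40.7 and 38.6 CPM in myotubes, against 195, 170.2 and 147 CPM in fibroblasts. Nrg1, neuregulin 1, had 9.46, 7.1 and 10.4 CPM in myotubes, against 31.8, 18.3 and 27.7 CPM in fibroblasts, opposite to Erbb3. The groups did not overlap for either ligand. Met, the receptor of Hgf, had 48.2, 41.9 and 46.1 CPM in myotubes, against 21.8, 24.4 and 21 CPM in fibroblasts. Adm, the vasodilator adrenomedullin, had 5.52, 11.8 and 9.97 CPM in myotubes, against 60.8, 101 and 104 CPM in fibroblasts, and Calcrl, its receptor, which endothelial cells also carry, 29, 34.4 and 25.5 CPM in myotubes, against 7.78, 10.6 and 7.45 CPM in fibroblasts. Endothelial markers were also higher in myotubes, and the part of endothelial cells in Calcrl was not tested. Inhba with Acvr2a and Agrn with Lrp4 completed the 6 largest, and Agrn, agrin, had 62.3, 59.4 and 59.6 CPM in myotubes, against 99.5, 105 and 101 CPM in fibroblasts.

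Where both partners were higher in fibroblasts, the largest summed differences were Fgf10 and Fgf7 with Fgfr2, and Pdgfc with Pdgfra. Fgf7 averaged 21.9 ± 2.86 CPM in myotubes and 154 ± 13.5 CPM in fibroblasts, and Pdgfc 22.2 ± 0.479 CPM in myotubes and 104 ± 8.54 CPM in fibroblasts. The 3 pairs with both partners higher in myotubes were Fgf6 with Fgfr4, and Mstn and Gdf11 with Acvr2b. That count was 5 without myotube replicate 1 and 5 without both replicates numbered 1.

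**Figure D4:**
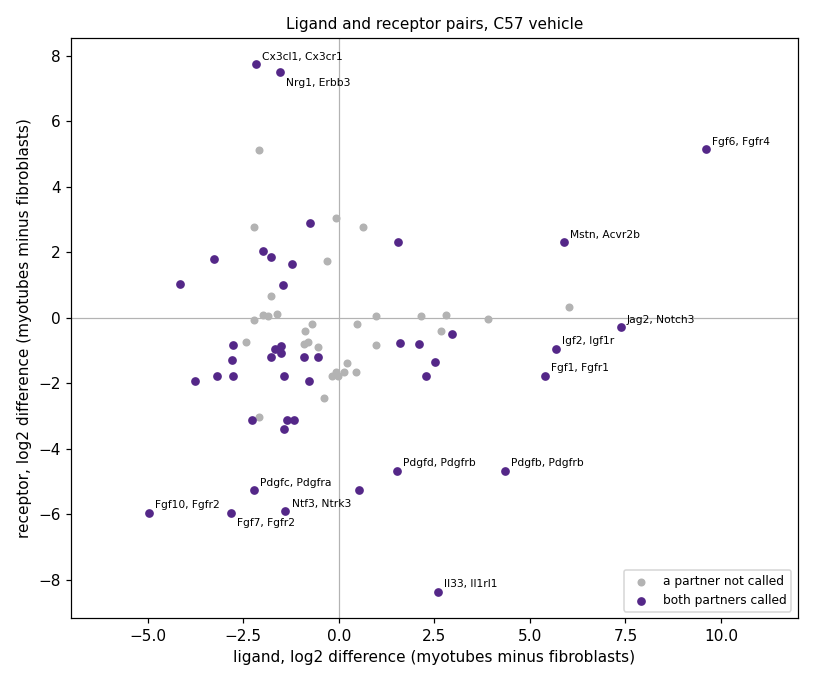
Log2 difference (myotubes minus fibroblasts, C57 vehicle) of the ligand (horizontal axis) and of its receptor (vertical axis) for the pairs in which both partners were tested; purple points are pairs with both partners called at an adjusted p below 0.05 and grey points the other pairs. The lower right of the plot holds the 12 called pairs with the ligand higher in myotubes and the receptor higher in fibroblasts, the upper left the 9 of the opposite kind, and the lower left the 21 with both higher in fibroblasts.

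The same contrast in the mdx line, whose Dmd gene is mutated, used 6 other libraries, 3 of mdx vehicle myotubes and 3 of mdx fibroblasts kept in the medium of mdx vehicle myotubes. In a fit of all 12 vehicle libraries, 12367 of 17435 genes (70.9%) were called between the mdx cell types. Across these 17435 genes, which are not independent replicates, the log2 difference in mdx correlated with that in C57 at r = 0.951. Of 5326 genes past 2-fold in C57 and tested in this fit, 5166 had the same sign and an adjusted p below 0.05 in mdx, and 12 had the opposite sign. The following 8 genes had the same direction in both lines, with mdx values from this fit and C57 values from the fit of 6 libraries. The log2 difference was 10.32 in mdx and 9.63 in C57 for Chrna1, 10.94 in mdx and 9.80 in C57 for Cacna1s, 12.66 in mdx and 10.69 in C57 for Myf6 and 8.80 in mdx and 8.16 in C57 for Musk. It was -6.55 in mdx and -8.36 in C57 for Il1rl1, -4.62 in mdx and -5.95 in C57 for Fgfr2, -3.53 in mdx and -4.12 in C57 for Osr1 and -8.40 in mdx and -10.46 in C57 for Gdf10. Of the fibroblast markers, Col1a1, Pdgfra, Col1a2, Dcn, Lum, Fap and Pdgfrb differed less in mdx than in C57, and Thy1 differed more. Values were -2.74 in mdx and -4.54 in C57 for Col1a1, and -4.12 in mdx and -3.74 in C57 for Thy1. Col1a1 averaged 1240 ± 752.3 CPM in mdx myotubes and 394.2 ± 196.8 CPM in C57 myotubes in the fit of 12 libraries. None of these markers was called between the lines, and the cause was not tested. Dmd, the gene that the mdx allele mutates, averaged 44.88 ± 10.94 CPM in mdx myotubes and 9.873 ± 2.05 CPM in mdx fibroblasts, and 402.2 ± 49.03 CPM in C57 myotubes and 27.42 ± 3.802 CPM in C57 fibroblasts. Its log2 difference between cell types was 2.19 in mdx and 3.89 in C57, and the difference between the lines missed the threshold (-1.68 ± 0.27 on the log2 scale, mdx minus C57; edgeR adjusted p = 0.0898).

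A test of the difference between the lines called 1 of 17435 genes (0.00574%), Pmaip1, with 2071 genes at an unadjusted p below 0.05. Pmaip1, also called Noxa, promotes cell death under stress. In the scaling of that fit it averaged 119.5 ± 13.23 CPM in mdx myotubes and 9.505 ± 1.05 CPM in mdx fibroblasts, and 108.3 ± 4.205 CPM in C57 myotubes and 21.86 ± 0.5462 CPM in C57 fibroblasts. Its cell type difference was larger in mdx by 1.35 ± 0.131 on the log2 scale (SE; edgeR adjusted p = 0.00309). The count of called genes moved widely with the setting, from 0 with the replicate numbers as a block to 363 with DESeq2. It was 309 without mdx vehicle myotubes replicate 3 and 38 without C57 vehicle myotubes replicate 1.

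**Figure D5:**
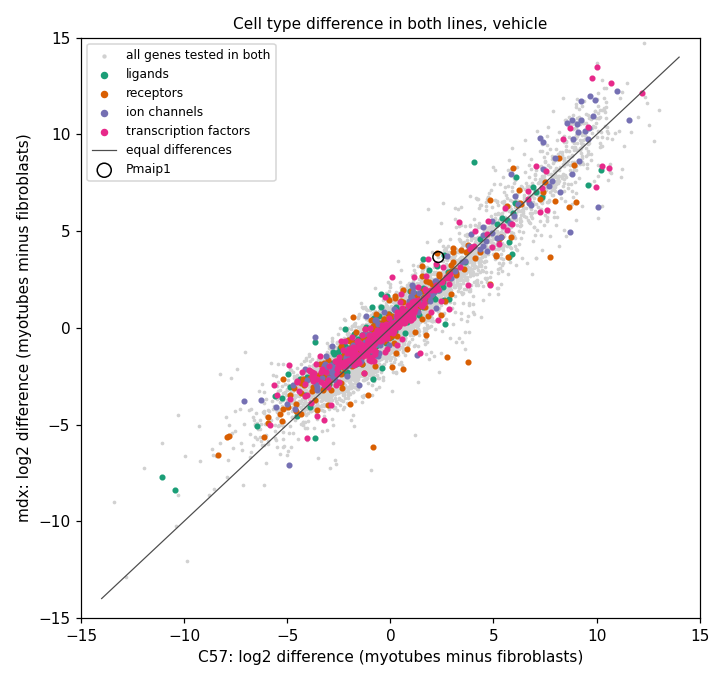
Log2 difference between vehicle myotubes and vehicle fibroblasts (myotubes minus fibroblasts) in C57 (horizontal axis, 6 libraries) and in mdx (vertical axis, from the fit of 12 libraries); grey points are all genes tested in both, coloured points the members of the 4 classes, the line marks equal differences and the ring marks Pmaip1. The correlation across genes was r = 0.951 for both contrasts taken from the 12-library fit, and single genes can lie off the line.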

How the data were processed

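RNA of primary myotubes and fibroblasts was sequenced in bulk from poly(A)-selected libraries without strand information, per the labels' protocols. The authors deposited read counts per gene, made with featureCounts 1.5.0-p3 on mm39, per the submitters' processing notes. These counts rest on an aligner and a gene annotation not given in the sources used here. FPKM values, which the authors also deposited, are a rescaling of these counts by length and depth, and no test used them.

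The 6 count columns were filtered (filterByExpr), scaled by TMM and tested with edgeR 4.0.16 (robust quasi-likelihood test, R 4.3.3), Benjamini-Hochberg adjusted over the 16647 genes kept. A gene was called at an adjusted p below 0.05. The 2-fold rule used glmTreat at a log2 difference of 1. The SE is the size of the difference divided by the square root of F. The line comparison used the 12 vehicle libraries with an interaction term. The tests were tried on simulated counts.

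The gene lists and the 86 pairs were chosen with earlier results of these data known. Genes were named by a rule: the largest differences over all genes, per class and per list with at least 5 CPM and no overlap, the highest genes not called, fixed genes, the largest crossed pairs, non-coding genes and interaction calls. Genes outside it, such as the acetylcholine receptor subunits Chrnd, Chrnb1 and Chrne, Myog, Myod1, Mef2c, Atp2a1, Casq2, Stim1, Gja1 and Prrx1, were chosen after their values were seen. Some genes that the rule picks are not reported here. All 5 list symbols absent from the file were left out. Alternatives were other scalings, no filter, DESeq2 1.42.0, all 24 libraries, a replicate block and each library left out. Leaving out both replicates numbered 1 was added after seeing the data. RefSeq promoters matched 1028 of 1396 class members by symbol. Depths of 14578755 to 38764711 counts limit the precision of genes below about 1 CPM.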

Additional observations from a re-analysis of the deposited data

Results flagged for a closer look

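The cell type difference of Pmaip1 differed between the lines in the test of the difference itself. The log2 difference of myotubes over fibroblasts was 3.66 in mdx and 2.32 in C57, and their difference was 1.35 (SE 0.131, edgeR adjusted p = 0.00309). All 3 mdx fibroblast libraries (9.746, 8.355 and 10.41 CPM) lay below all 3 C57 fibroblast libraries (22.46, 21.39 and 21.73 CPM), while the myotube libraries of the lines overlapped. With the replicate numbers as a block the adjusted p was 0.0709.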

How the results depend on the processing

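Of 380 counts under other settings, 370 stayed within 1.5 times of the value reported. Without single libraries, 12277 to 12944 genes were called and 5088 to 5367 passed 2-fold, and DESeq2 gave 13219 called and 4555 past 2-fold. The pairs with both partners higher in myotubes ranged from 3 to 5 without single libraries and numbered 5 without both replicates numbered 1. The count of genes whose contrast differed between the lines was 82 without the filter, 0 with the replicate block, 363 with DESeq2 and 1 to 309 without single libraries (38 and 3 without C57 myotube replicates 1 and 2, and 4, 2 and 309 without mdx myotube replicates 1, 2 and 3). The cause of these shifts was not tested. The replicate block gave 12433 called genes and 5188 past 2-fold in the C57 contrast. The labels do not say that a replicate number marks a shared animal or day, so the samples were not treated as paired. Deviations of same-numbered libraries correlated at 0.162, 0.12 and 0.0133, and 2 of 3 myotube libraries correlated best with the fibroblast library of their own number.

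Of 2802 values for named genes, 2730 kept direction and side of the threshold, 20 lost their call, 24 gained one and 28 changed sign. The sign changes were all in genes that were not called in the reported fit. Without both replicates numbered 1, the log2 difference of Hbegf was 0.1131, of Itgb1 0.04902 and of Mafg -0.0632. With library totals only, Tnfrsf12a was at -0.2168, Orai2 at -0.2614 (adjusted p = 0.0481), Mafg at -0.235 (adjusted p = 0.0135) and Foxo3 at -0.1627. With upper-quartile scaling, Tnfrsf12a was at -0.05498, Orai2 at -0.09633 and Mafg at -0.06945. Without the filter they were at -0.05178, -0.09284 and -0.06533, and with all 24 libraries at -0.01287, -0.0533 and -0.02692, each in that order. DESeq2 put Orai2 at -0.01471. Without single libraries, Hbegf ranged from -0.08942 to 0.08013, Itgb1 from -0.07428 to 0.03877, Tnfrsf12a from -0.03806 to 0.1528, Orai2 from -0.09326 to 0.07427 and Mafg from -0.05894 to 0.08. Depth limits genes near the floor: those with 1 to 3 counts in a group have counting intervals that span more than 10-fold.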
